A study of Sus scrofa with 32 samples.

Results

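Solute carriers (SLC genes) encode membrane proteins that move amino acids, sugars, vitamins, metal ions, bicarbonate, phosphate and organic ions across the plasma membrane and the membranes of organelles. The set described here holds every probe set whose paired human symbol is SLC followed by a family number, the letter A and a member number. These were 159 of 14327 probe sets, and each symbol was represented by its brightest probe set (averaged across the arrays), which left 125 of 8390 symbols. Of these, 122 are carriers. The other 3 only carry a carrier's name: SLC2A3P1 is a pseudogene of a glucose transporter in human, SLC2A4RG is named as a regulator of a glucose transporter gene, and SLC7A6OS is the gene on the opposite strand of SLC7A6. SLC9A3R1 and SLC9A3R2, which encode scaffold proteins, were left out of the set.

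The tissues came from juvenile Ossabaw miniature swine, a breed used to model obesity, at 22 weeks of age. For 16 weeks, 6 lean pigs (48, 56, 63, 73, 80 and 86) were fed a commercial diet low in fat, while 5 obese pigs (51, 55, 57, 81 and 85) were fed a diet high in fat, high fructose corn syrup and cholesterol. From each pig came a coronary artery, the left anterior descending (LAD), its neighbouring perivascular fat (PVAT) and, of the aorta, the descending thoracic part (TA), with 1 array per tissue, except that pig 63 had no TA array. The 32 arrays thus comprised 6 lean and 5 obese LAD, 6 lean and 5 obese PVAT, and 5 lean and 5 obese TA samples. The arteries were taken whole after fat and excess adventitia had been dissected away.

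Transport in a blood vessel serves several tasks. Cationic amino acid carriers bring arginine to nitric oxide synthase, the cystine exchanger supplies cysteine for glutathione, bicarbonate and chloride carriers set the pH and volume of smooth muscle cells, and zinc and iron carriers control the metal content of cells and organelles. In fat and in heart muscle the carriers of the mitochondrial inner membrane (family SLC25) link the matrix to the cytosol: they exchange ADP for ATP, bring in phosphate and acylcarnitine, and export the citrate that feeds fatty acid synthesis.

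Values are log2 signals per probe set. Each tissue was checked against marker genes. MYH11, the myosin of smooth muscle, had a median of 14.33 in LAD and 14.30 in TA and of 12.95 in PVAT. The mean of 8 measured adipocyte genes per array ran from 9.47 to 11.82 in PVAT, from 8.11 to 9.09 in LAD and from 7.52 to 8.44 in TA, while ADIPOQ itself differed little (medians of 10.84 in PVAT, 10.60 in LAD and 10.61 in TA). The mean of 19 of 23 listed cardiomyocyte genes ran from 7.70 to 12.08 in LAD, from 6.70 to 12.34 in PVAT and from 6.42 to 7.55 in TA, so heart muscle signal was present in PVAT and in many LAD samples. For several members the TA array of the obese pig 57 lay far from the other TA arrays. Some of the results that turn on it are also given without it. Fewer cells of a type and less RNA per cell cannot be told apart in these bulk samples. PVAT was extracted with another RNA kit than the arteries, so kit and tissue cannot be told apart in comparisons with PVAT.

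The 125 members spanned a wide range of levels. The highest means over all arrays belonged to SLC25A3, the mitochondrial phosphate carrier, SLC25A6, which exchanges ADP for ATP, SLC38A2, a carrier of neutral amino acids, SLC25A4, the muscle form of the ADP/ATP carrier, SLC40A1, the iron exporter ferroportin, and SLC7A7, which encodes a light chain for cationic amino acid transport. The platform annotation names the SLC7A7 probe set OXA1L instead, so its identity is uncertain. The lowest means belonged to SLC5A7, SLC22A2 and SLC1A2. The means of the 3 tissues lay within 0.5 log2 units of each other for 73 members and over 1 unit apart for 22, and the median gap between the highest and the lowest tissue was 0.41. The members over 2 units apart were SLC5A7, SLC22A2, SLC7A11, SLC16A12, SLC6A17, SLC1A1 and SLC1A3.

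Tissues and diets were compared with limma (moderated two-sided test on log2 values), with p-values adjusted by Benjamini-Hochberg across the tested table. A member passed at an adjusted p under 0.05. Probe sets in the lowest 30% by mean level, at or below 7.69, were not tested. Of the 125 members, 76 could be tested and 49 fell below that level. Values for the 49 come from the same fit without the filter and are described as such. Every probe set of the deposited table reached 6.64, which is an intensity of 100 on the log2 scale, on 11 arrays or more, and 11 is the number of arrays of LAD or PVAT. A member that is low in a pair of tissues is therefore in the table through the third, and its difference is a description. No difference, fold or test is given where a compared group averages below 6.64; the values are then described.

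Between the arteries, 9 of 76 tested members were higher in LAD than in TA and 8 were lower, against 24.5% of all tested probe sets passing (14.4% higher and 10.1% lower). PVAT exceeded LAD for 18 members and lay below it for 19, against 56.6% of all tested probe sets (24.2% higher and 32.4% lower). PVAT exceeded TA for 22 members and lay below it for 20, against 59.7% (26.9% higher and 32.9% lower). As shares of the 76 members, 22.4%, 48.7% and 55.3% passed, none above the share of all tested probe sets. The median difference over the members was -0.02, 0.05 and 0.03 in the 3 comparisons, against 0.01, -0.04 and -0.04 over all tested probe sets. At an unadjusted limma p under 0.05 there were 25, 47 and 45 members, against 35.1%, 61.4% and 63.5% of all tested probe sets. In total 54 members passed in at least 1 comparison and 22 in none. The share of all tested probe sets passing in at least 1 comparison, or in all 3, is not given here. Such counts of members therefore cannot be set against the whole table. Without the filter, 30, 58 and 70 of 125 members passed, against 23%, 54.2% and 58.2% of all 14327 probe sets.

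**Figure D1:**
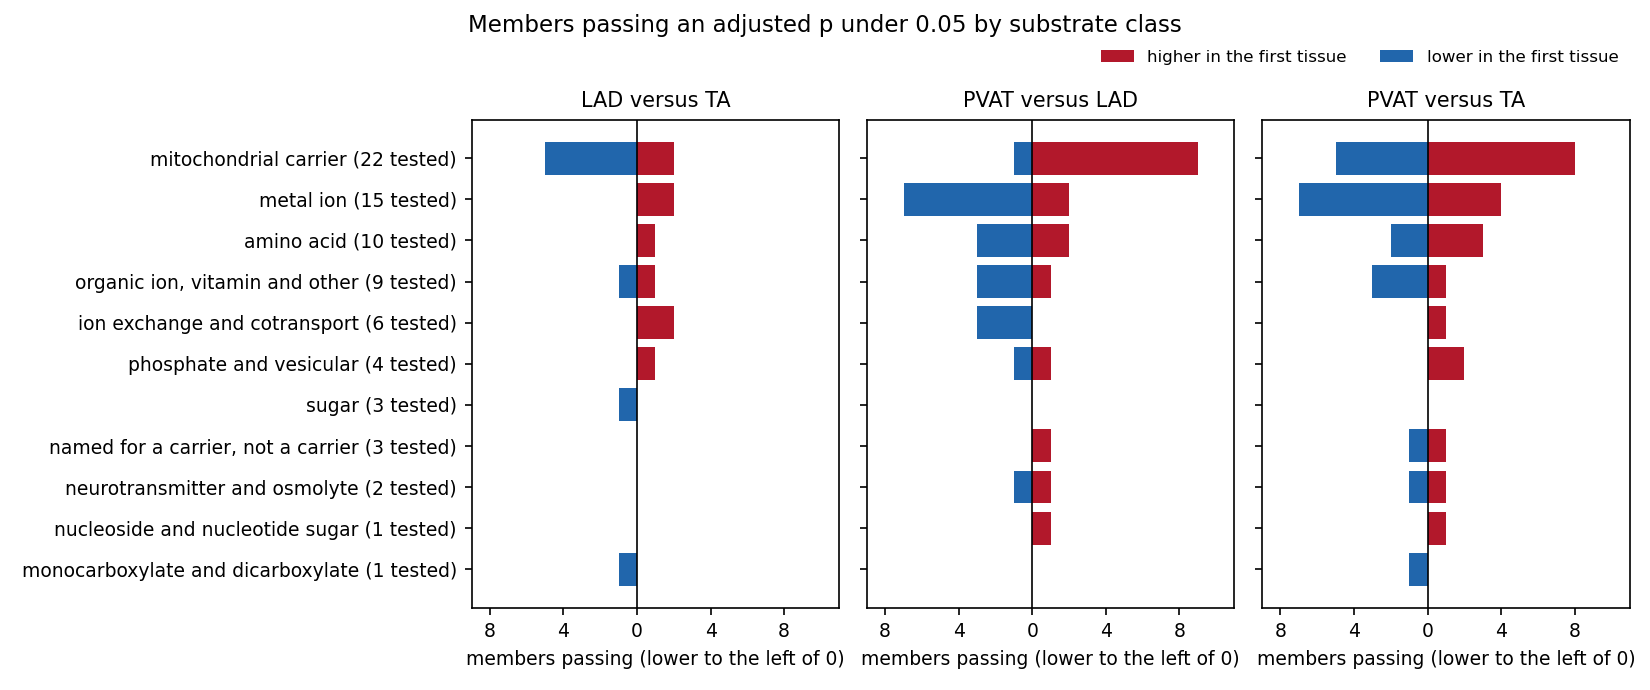
Horizontal bars give the number of tested members passing an adjusted p under 0.05 in each tissue comparison, by substrate class, to the right of 0 where the first tissue is higher and to the left where it is lower; the number tested stands beside each class. Mitochondrial carriers pass mostly upward in PVAT versus LAD (9 higher, 1 lower) and metal ion carriers mostly downward (2 higher, 7 lower). Of all tested probe sets, 24.2% pass upward and 32.4% downward in that comparison.

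Amino acid carriers held the largest difference among the tested members. SLC7A11 encodes the cystine and glutamate exchanger of system xc-, which supplies cystine for glutathione. Its signal ran from 9.75 to 10.60 in LAD (median 10.25), from 6.27 to 7.94 in PVAT (median 6.97) and from 8.73 to 11.47 in TA (median 10.54). PVAT did not overlap with either artery. The mean was 10.23 ± 0.22 (SD, n = 11) in LAD, 7.10 ± 0.61 (n = 11) in PVAT and 10.48 ± 0.69 (n = 10) in TA. PVAT minus LAD was -3.13 log2 units (SE 0.23, 8.76-fold lower, adjusted p = 4.31e-12) and PVAT minus TA -3.37 (SE 0.23, 10.4-fold lower, adjusted p = 8.48e-13), and PVAT was the lower tissue in 11 of 11 and 10 of 10 pigs. The lowest TA value, 8.73, is the array of pig 57.

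SLC7A2, a carrier of arginine and other cationic amino acids, passed in all 3 comparisons, as did only SLC25A6 and SLC25A37 among the tested members. Its level was 8.61 ± 0.24 (n = 11) in LAD, 8.14 ± 0.27 (n = 11) in PVAT and 7.32 ± 0.35 (n = 10) in TA. LAD exceeded TA by 1.30 (SE 0.13, 2.46-fold, adjusted p = 3.21e-09) in 10 of 10 pigs, with the LAD range of 8.28 to 9.01 above the TA range of 6.67 to 7.86. The means of the related cationic carrier SLC7A1 followed another order: 9.44 ± 0.56 in TA, 8.99 in LAD and 8.58 ± 0.47 in PVAT, with a PVAT minus TA difference of -0.87 (SE 0.19, adjusted p = 2.43e-04). Between the arteries SLC7A1 did not pass, with an LAD minus TA difference of -0.44 (adjusted p = 0.0843). SLC38A2 was 0.36 higher in PVAT than in LAD and 0.34 higher than in TA. The glutamine carriers SLC1A5 and SLC38A1 passed in no tissue comparison.

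Several amino acid carriers below the filter also had distinct levels by tissue. SLC1A3, a glutamate transporter known from glia, was at 7.33 to 9.45 in PVAT, 6.14 to 7.55 in LAD and 5.67 to 6.95 in TA, and PVAT lay above TA in 10 of 10 pigs. It averaged below 6.64 in both arteries. SLC1A1, the glutamate transporter of neurons and epithelia, showed the opposite order: 6.77 to 8.90 in TA, 5.89 to 7.47 in LAD and 4.95 to 6.43 in PVAT. TA and PVAT did not overlap for SLC1A1, and every PVAT value lay below 6.64. SLC7A10, a small neutral amino acid carrier found in adipocytes, was at 8.11 ± 0.33 in PVAT, 7.16 ± 0.26 in LAD and 6.61 ± 0.21 in TA. The adipocyte gene means given above had the same tissue order as SLC7A10, but not the same order among the PVAT arrays. The highest SLC7A10 value, 8.71 in pig 86, came with an adipocyte mean of 10.39. The highest adipocyte mean, 11.82 in pig 73, came with an SLC7A10 value of 8.32. The part of adipocyte content in the SLC7A10 levels was not tested. SLC6A17, a vesicular carrier of neutral amino acids in neurons, was at 8.13 to 8.64 in LAD, 5.78 to 8.11 in TA and 4.98 to 7.05 in PVAT. PVAT and LAD did not overlap, PVAT averaged below 6.64, and the lowest TA value was again that of pig 57.

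**Figure D2:**
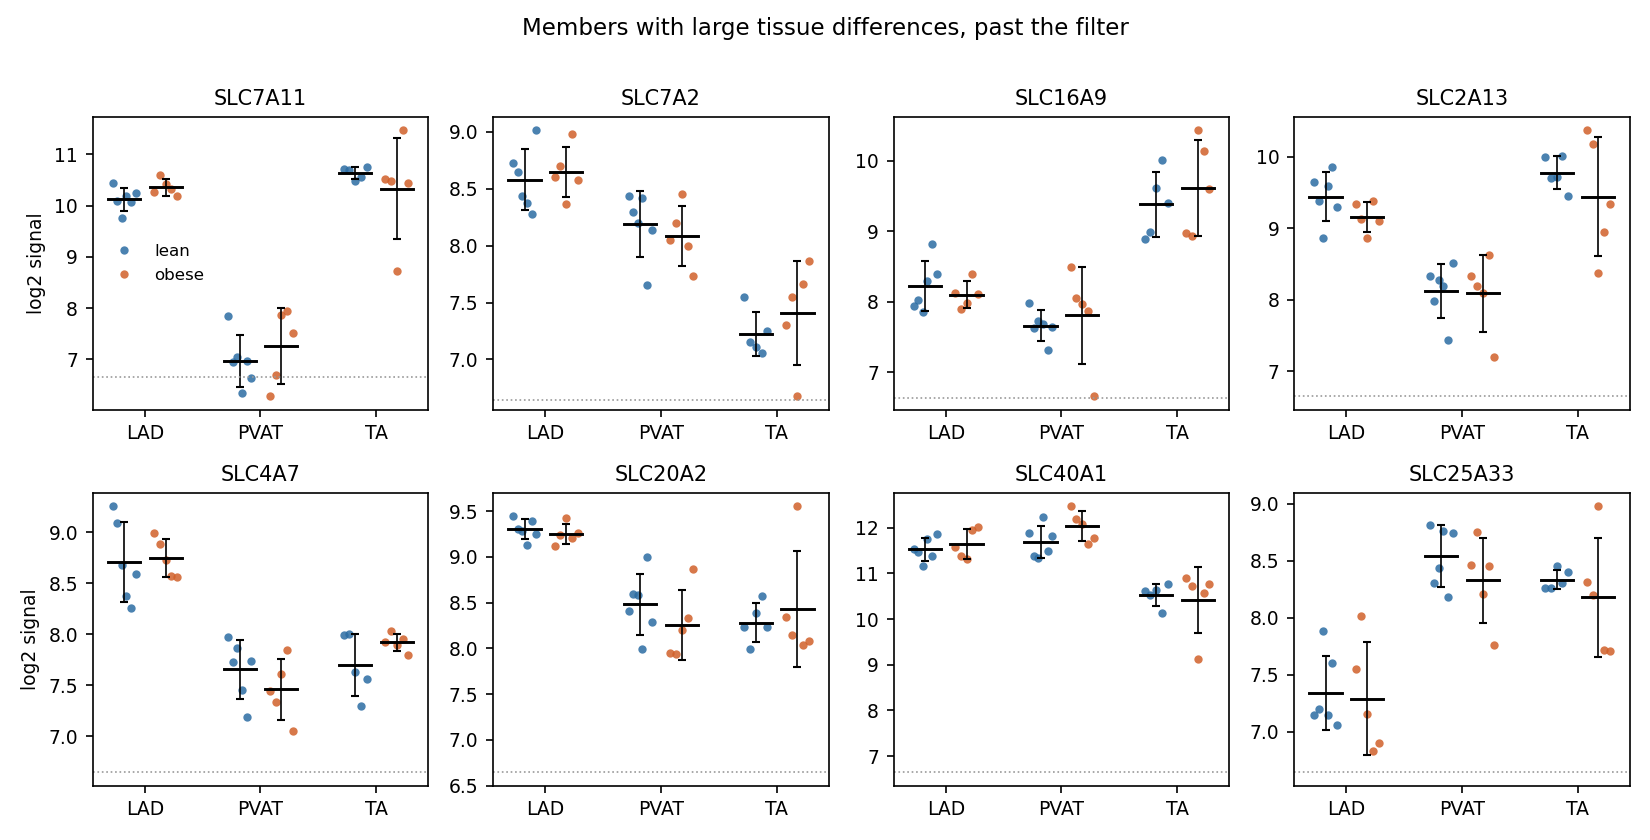
Each point is the log2 signal of 1 array for 8 tested members, by tissue (LAD, PVAT, TA) and diet (lean blue, obese orange); black bars and whiskers give the group mean and SD and the dotted line 6.64. SLC7A11 separates PVAT from both arteries, while SLC40A1 separates TA from LAD and PVAT.

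Sugar carriers differed little among the tested members. SLC2A1, the widely expressed glucose transporter, was the only member of the 3 tested sugar carriers to pass, lower in LAD (8.22 ± 0.27, n = 11) than in TA (8.76 ± 0.64, n = 10), with a difference of -0.55 (SE 0.20, adjusted p = 0.0391). The TA array of pig 57 had the highest value of any array, 10.4, and without that array the difference was -0.37 (adjusted p = 0.0625). Leaving out any of 7 pigs also ended the call, with differences of -0.59 to -0.40. SLC2A3, a glucose transporter of high affinity, and SLC50A1 passed in no tissue comparison, although without that array SLC2A3 differed between LAD and TA by -0.59 (adjusted p = 0.0162). Below the filter, SLC2A12, another glucose transporter, was at 8.20 to 9.36 in TA, above the 6.23 to 7.91 of LAD and the 6.36 to 7.63 of PVAT with no overlap. The difference from TA was -1.70 for LAD (SE 0.17, 3.26-fold lower, adjusted p = 5.66e-09) and -1.92 for PVAT (SE 0.17, 3.80-fold lower, adjusted p = 1.57e-10), and it was -1.96 and -2.40 on a second probe set of SLC2A12. SLC2A4, the insulin-regulated glucose transporter of fat and muscle, averaged 7.34 in LAD, 7.22 in PVAT and 7.26 in TA and did not pass.

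The 2 tested carriers of the osmolyte myo-inositol differed in opposite directions. SLC2A13, a proton-coupled inositol carrier, was at 8.10 ± 0.43 (n = 11) in PVAT, 9.31 ± 0.31 (n = 11) in LAD and 9.61 ± 0.60 (n = 10) in TA, and PVAT differed from LAD by -1.20 (SE 0.19, 2.29-fold lower, adjusted p = 7.00e-06) and from TA by -1.50 (SE 0.20, 2.84-fold lower, adjusted p = 2.01e-07). SLC5A3, a sodium-coupled inositol carrier, was higher in PVAT, by 0.54 over LAD (SE 0.16, adjusted p = 4.54e-03) and by 0.63 over TA (SE 0.16, adjusted p = 1.33e-03).

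In the family of monocarboxylate carriers, SLC16A9, linked to carnitine in human, was highest in the aorta. It was at 8.89 to 10.43 in TA (median 9.50), 7.86 to 8.81 in LAD (median 8.11) and 6.66 to 8.49 in PVAT (median 7.73). TA overlapped with neither of the other tissues. The difference from TA was -1.33 for LAD (SE 0.19, 2.52-fold lower, adjusted p = 4.71e-06) and -1.76 for PVAT (SE 0.19, 3.39-fold lower, adjusted p = 1.05e-08), with TA higher in 10 of 10 pigs each. SLC16A12, a creatine carrier below the filter, had the reverse order: 7.92 to 8.89 in LAD, 7.66 to 9.27 in PVAT and 4.80 to 7.33 in TA. TA overlapped with neither of the others and averaged below 6.64. The highest TA value, 7.33, belonged to pig 57.

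Mitochondrial carriers were the largest class, with 25 members and 22 tested. Of the 22, 9 were higher and 1 lower in PVAT than in LAD (median difference 0.27). Thus 45.5% passed, against 56.6% of all tested probe sets (24.2% higher and 32.4% lower). Between PVAT and TA 8 were higher and 5 lower (median 0.18), which is 59.1% against 59.7%. Between LAD and TA 2 were higher and 5 lower (median 0.00), which is 31.8% against 24.5%. SLC25A33, a pyrimidine nucleotide carrier, was lowest in LAD: 7.32 ± 0.39 (n = 11), against 8.44 ± 0.32 (n = 11) in PVAT and 8.26 ± 0.36 (n = 10) in TA. PVAT exceeded LAD by 1.12 (SE 0.15, 2.17-fold, adjusted p = 5.92e-07) in 11 of 11 pigs, and LAD differed from TA by -0.94 (SE 0.16, adjusted p = 3.26e-05), lower in 10 of 10. SLC25A29, a carrier of basic amino acids, was higher in PVAT than in LAD by 0.77 (SE 0.18, adjusted p = 5.35e-04) and than in TA by 0.80 (SE 0.18, adjusted p = 3.86e-04). SLC25A1, the citrate carrier that supplies fatty acid synthesis, was higher in PVAT than in LAD by 0.57 (SE 0.145, adjusted p = 1.47e-03). SLC25A20, the carnitine and acylcarnitine carrier of fatty acid oxidation, was higher there by 0.49 (SE 0.15, adjusted p = 5.46e-03). SLC25A17, which belongs to this family but sits in the peroxisome, was higher by 0.52 (adjusted p = 8.78e-03).

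The 3 ADP/ATP carriers followed separate patterns. SLC25A6, the ubiquitous form, was highest in TA at 12.24 ± 0.17 (n = 10), then PVAT at 12.02 and LAD at 11.76 ± 0.09 (n = 11). LAD differed from TA by -0.47 (SE 0.06, adjusted p = 1.51e-06), lower in 10 of 10 pigs with no overlap. SLC25A5, the form of dividing cells, passed in none with all arrays. Its value on the TA array of pig 57, 11.75, was its highest in TA. Without that array, SLC25A5 was higher in PVAT than in TA by 0.65 and than in LAD by 0.44 (limma adjusted p = 1.73e-03 and 0.0199). SLC25A4, the form of heart and skeletal muscle, was at 11.59 ± 0.69 in LAD, 12.14 ± 0.96 in PVAT and 10.57 ± 0.38 in TA. It was higher than in TA by 1.02 in LAD (SE 0.32, adjusted p = 0.0168) and by 1.58 in PVAT (SE 0.32, adjusted p = 1.07e-04).

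SLC25A4 moved with heart muscle signal from array to array. Its highest values were 13.26 in the PVAT of pig 85, 13.23 in the PVAT of pig 80 and 13.13 in the LAD of pig 63, the 3 arrays with cardiomyocyte means of 12.34, 12.23 and 12.08. Its lowest PVAT value, 10.33 in pig 73, came with a cardiomyocyte mean of 6.70. With that mean as a covariate the difference of SLC25A4 from TA turned to -0.28 for LAD and -0.26 for PVAT, and it no longer passed (adjusted p = 0.254 and 0.316). Without the arrays of pig 57, LAD exceeded TA by 0.83 (adjusted p = 0.0602). SLC25A12, the aspartate and glutamate carrier of heart and brain, was higher in PVAT than in TA by 0.74 (SE 0.19, adjusted p = 1.17e-03), and with the covariate the difference was -0.07 (adjusted p = 0.825). Its liver-type relative SLC25A13 was higher in LAD than in TA by 0.37 (SE 0.11, adjusted p = 0.0119), and by 0.40 with the covariate (adjusted p = 0.0504). SLC4A3, a chloride and bicarbonate exchanger of heart and brain, was higher in PVAT than in TA by 0.65 (SE 0.23, adjusted p = 0.0165). That difference was -0.42 with the covariate (adjusted p = 0.178), without pig 80 it was 0.57 (adjusted p = 0.0506), and with the 28S/18S ratio as a covariate 0.52 (adjusted p = 0.0734). SLC41A1, a magnesium carrier, was at 10.54, 10.49 and 10.45 on the same 3 arrays and passed in no tissue comparison, while with the covariate it differed from TA by -1.43 in LAD and by -1.71 in PVAT (adjusted p = 1.66e-04 and 6.89e-05).

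The same covariate moved many calls between PVAT and TA. With it 26 of 76 members passed there, against 37% of all tested probe sets, where 42 of 76 and 59.7% passed without it. Among the calls it ended between PVAT and TA were those of the neutral amino acid carrier SLC38A2 (0.28, adjusted p = 0.187), the ADP/ATP carrier SLC25A6 (-0.16, adjusted p = 0.202) and the mitoferrins SLC25A37 (-0.10, adjusted p = 0.598) and SLC25A28 (-0.18, adjusted p = 0.306). Further tissue differences described here that lost the call with it are named beside their values. The cardiomyocyte means of TA (6.42 to 7.55) did not overlap with those of LAD (7.70 to 12.08). In PVAT only the mean of pig 73, 6.70, lay within the TA range. Tissue and heart muscle signal can therefore hardly be told apart in differences from TA with this covariate, for lost and new calls alike.

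**Figure D3:**
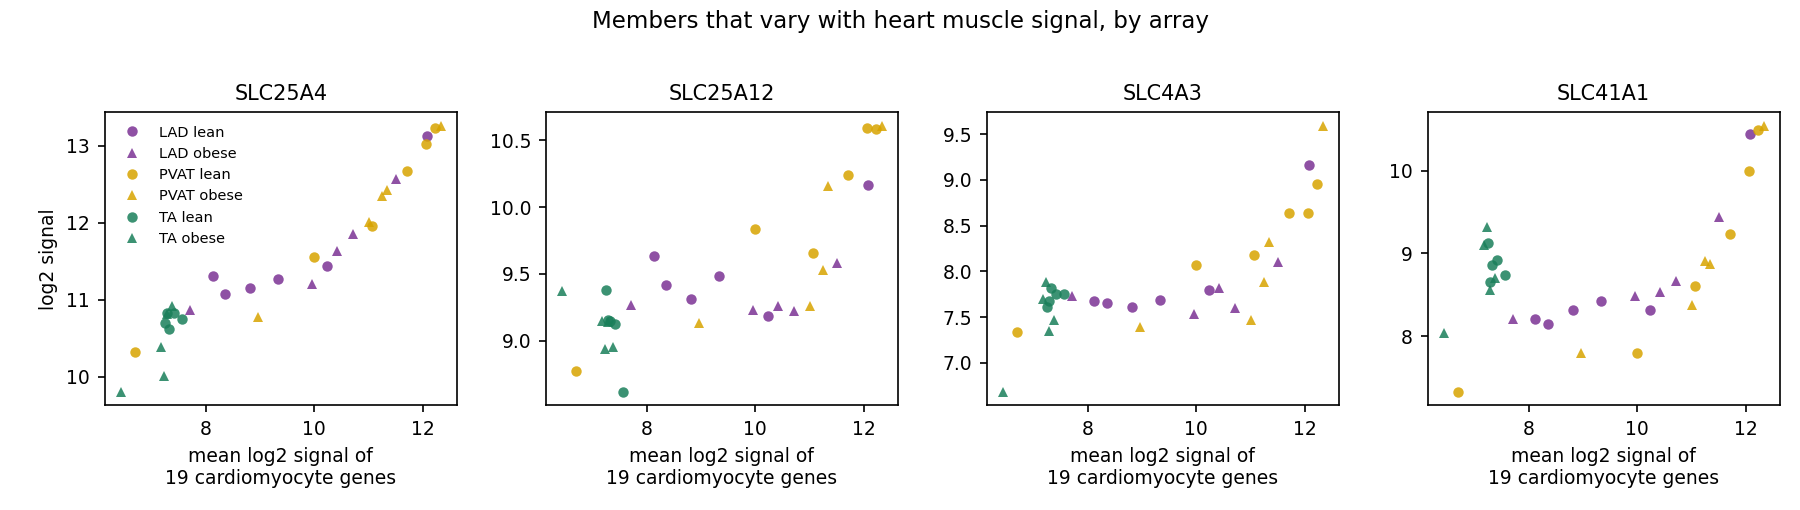
Each point is 1 array, with the mean log2 signal of 19 cardiomyocyte genes on the horizontal axis and the log2 signal of SLC25A4, SLC25A12, SLC4A3 or SLC41A1 on the vertical axis; colour gives the tissue and shape the diet. The 4 arrays with cardiomyocyte means above 12 (LAD of pig 63, PVAT of pigs 56, 80 and 85) hold the 4 highest values of SLC25A4 and of SLC41A1.

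The mitoferrins, which bring iron into mitochondria, differed in opposite directions between PVAT and LAD, while both were lower in PVAT than in TA. SLC25A37 was highest in TA (8.35 ± 0.26, n = 10), then PVAT (8.08) and LAD (7.81 ± 0.11, n = 11), with an LAD minus TA difference of -0.54 (SE 0.09, adjusted p = 5.36e-05). PVAT exceeded LAD by 0.28 and differed from TA by -0.26 (adjusted p = 0.0111 and 0.017). SLC25A28 was lower in PVAT than in either artery, with differences of -0.29 from LAD and -0.22 from TA (adjusted p = 3.85e-03 and 0.0278).

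Of 15 tested metal ion carriers, 7 were lower and 2 higher in PVAT than in LAD, while 32.4% of all tested probe sets were lower and 24.2% higher. Against TA, 7 were lower and 4 higher, while 32.9% of all tested probe sets were lower and 26.9% higher. SLC40A1 (ferroportin), the iron exporter of macrophages and other cells, was at 11.16 to 12.02 in LAD (median 11.54), 11.34 to 12.47 in PVAT (median 11.81) and 9.13 to 10.90 in TA (median 10.62), where TA overlapped with neither. It was higher than in TA by 1.11 in LAD (SE 0.17, 2.16-fold, adjusted p = 9.63e-06) and by 1.39 in PVAT (SE 0.17, 2.61-fold, adjusted p = 6.38e-08), in 10 of 10 pigs each. A second probe set differed from TA by 1.32 and 1.66. The mean of 11 endothelial genes per array ran from 8.28 to 8.98 in LAD, from 9.23 to 9.997 in PVAT and from 7.04 to 8.98 in TA, and that of 11 macrophage genes from 8.60 to 11.08, from 9.50 to 10.64 and from 8.61 to 10.30. Their part in the SLC40A1 difference was not tested.

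Among zinc carriers, SLC39A6, SLC39A7, SLC39A14 and SLC30A7 were lower in PVAT than in both arteries, with a difference of -0.67 from TA for SLC39A6 (SE 0.14, adjusted p = 2.62e-04). SLC39A6 was at 9.16 ± 0.37 in PVAT and 9.83 ± 0.28 in TA. With the cardiomyocyte mean as a covariate, SLC39A6 and SLC39A7 did not pass against TA (-0.45 and -0.09, adjusted p = 0.11 and 0.631). SLC30A3 and SLC39A10 were higher in PVAT than in both, SLC39A10 by 0.53 over LAD (SE 0.08, adjusted p = 1.26e-06). For SLC39A10 the platform annotation gives RPS27A, a ribosomal protein, and for SLC30A3 a second probe set differed by -0.03 from LAD, so both are uncertain. With the same covariate SLC30A3 passed against neither artery (adjusted p = 0.0946 for LAD and 0.418 for TA). SLC11A2, the importer of divalent metals that works with transferrin, lay below the filter, and in the fit without it was at 7.85 ± 0.28 in TA, 7.30 ± 0.19 in LAD and 7.02 ± 0.21 in PVAT. The difference from TA was -0.56 for LAD (adjusted p = 4.10e-05) and -0.84 for PVAT (adjusted p = 1.75e-08).

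The carriers of copper and heme did not all follow one order. SLC31A1, the copper importer, averaged 8.54 in PVAT, 8.74 in LAD and 9.04 in TA, and PVAT differed from TA by -0.51 (SE 0.14, adjusted p = 2.82e-03) but did not pass against LAD (-0.21, adjusted p = 0.188). With the cardiomyocyte mean as a covariate the SLC31A1 difference from TA did not pass (-0.38, adjusted p = 0.177). SLC46A1, a carrier of folate and heme, differed in PVAT by -0.29 from LAD (adjusted p = 0.0326) and by 0.01 from TA (adjusted p = 0.935). With the covariate its difference from LAD was -0.29 (adjusted p = 0.0502). SLC48A1, which moves heme out of endosomes and lysosomes, was at 7.79 ± 0.17 (n = 11) in PVAT, 8.53 ± 0.17 (n = 11) in LAD and 8.34 ± 0.23 (n = 10) in TA, and PVAT differed from LAD by -0.74 (SE 0.08, 1.67-fold lower, adjusted p = 7.50e-09) with no overlap. SLC31A2, a regulator of copper uptake, differed in PVAT by -0.70 from LAD (SE 0.21, adjusted p = 5.53e-03) and by -0.87 from TA (SE 0.21, adjusted p = 9.80e-04), the latter -0.65 with the cardiomyocyte covariate (adjusted p = 0.125). Within TA, SLC31A2 split by sacrifice date: the 5 arrays of the earlier dates lay at 8.401 to 9.61 and the 5 of the last date at 7.24 to 7.69, in lean and obese pigs alike. Within the 3 dates, its difference between PVAT and TA was -1.61, -1.10 and -0.34.

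Bicarbonate, chloride and phosphate carriers were highest in the coronary artery for 3 members. SLC4A7, a sodium bicarbonate cotransporter that regulates pH in smooth muscle and endothelium, was at 8.26 to 9.25 in LAD (median 8.68), 7.05 to 7.97 in PVAT (median 7.61) and 7.30 to 8.03 in TA (median 7.91). LAD overlapped with neither tissue. LAD exceeded TA by 0.92 (SE 0.12, 1.89-fold, adjusted p = 9.18e-07), and PVAT differed from LAD by -1.17 (SE 0.12, 2.25-fold lower, adjusted p = 3.38e-09). SLC12A4, a potassium chloride cotransporter that controls cell volume, was higher in LAD (8.84 ± 0.12, n = 11) than in TA (8.26 ± 0.65, n = 10) by 0.57 (SE 0.17, adjusted p = 0.0143), and PVAT (7.97 ± 0.28) differed from LAD by -0.86 (SE 0.17, adjusted p = 1.01e-04). The lowest TA value of SLC12A4, 6.45, was that of pig 57, and without that array LAD exceeded TA by 0.36 (adjusted p = 1.04e-03). With the cardiomyocyte covariate the difference was 0.54 (adjusted p = 0.104). SLC20A2, a sodium phosphate cotransporter, was higher in LAD (9.28 ± 0.11) than in TA (8.36 ± 0.46) by 0.92 (SE 0.15, adjusted p = 1.73e-05), and PVAT (8.38 ± 0.36) differed from LAD by -0.91 (SE 0.14, adjusted p = 5.06e-06). The highest TA value of SLC20A2, 9.55 in pig 57, lay above the LAD range. Below the filter, SLC4A4, another sodium bicarbonate cotransporter, was higher in PVAT than in LAD by 1.02 (SE 0.22, adjusted p = 3.10e-04), and SLC4A5, of the same family, lay at 6.10 to 6.77 in PVAT, below its LAD range of 7.16 to 7.92.

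Carriers of vitamins and organic ions differed in both directions. SLC5A6, the sodium-dependent carrier of biotin and pantothenate, was at 9.38 ± 0.61 (n = 11) in PVAT, 8.56 ± 0.13 (n = 11) in LAD and 8.94 ± 0.25 in TA, and PVAT exceeded LAD by 0.80 (SE 0.17, 1.75-fold, adjusted p = 2.36e-04) in 10 of 11 pigs. SLC19A2, a thiamine carrier, was higher in TA, with an LAD minus TA difference of -0.43 (SE 0.14, adjusted p = 0.0281). Leaving out any of 5 pigs ended that call, with differences of -0.42 to -0.33, as did leaving out the TA array of pig 57 (-0.34, adjusted p = 0.0519) and the cardiomyocyte covariate (-0.46, adjusted p = 0.0961). SLC22A15, an organic ion carrier, was at 9.25 ± 0.73 in PVAT, 10.39 ± 0.51 in LAD and 10.14 ± 1.19 in TA, and PVAT differed from LAD by -1.15 (SE 0.35, adjusted p = 6.83e-03) and from TA by -0.88 (SE 0.36, adjusted p = 0.0367). The SLC22A15 difference from TA lost the call without any of 8 pigs (-0.90 to -0.63), and without pig 57 it was -1.35 (adjusted p = 4.78e-05). With the cardiomyocyte covariate it was -1.29 (adjusted p = 0.0699). SLC44A2, a choline carrier-like protein, was higher in LAD than in TA by 0.38 (SE 0.09, adjusted p = 2.01e-03), by 0.40 and by 0.35 on its 3 probe sets.

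A pair of organic ion carriers below the filter had the widest tissue gaps of all members. SLC5A7, the high-affinity choline transporter of cholinergic neurons, was at 5.06 to 11.41 in PVAT (median 8.88) and 3.33 to 3.71 in TA. In LAD it was at 3.01 to 3.65 in 8 pigs and at 7.38, 7.22 and 6.27 in pigs 80, 81 and 86, which all came from the last sacrifice date, while the other pigs of that date, 73 and 85, were at 3.01 and 3.245. PVAT did not overlap with TA, where every value lay below 6.64. The mean of 9 neural and Schwann cell genes ran from 9.89 to 10.91 in PVAT, from 9.12 to 10.29 in LAD and from 6.30 to 8.21 in TA, and its part in these levels was not tested. Those 3 LAD arrays had neural means of 9.53, 9.41 and 9.86, within the range of the other LAD arrays. SLC22A2, an organic cation transporter known from kidney, was at 6.59 to 8.59 in LAD, 4.01 to 6.85 in TA and 3.38 to 4.82 in PVAT. PVAT did not overlap with LAD, LAD lay above TA in 10 of 10 pigs, and both PVAT and TA averaged below 6.64.

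**Figure D4:**
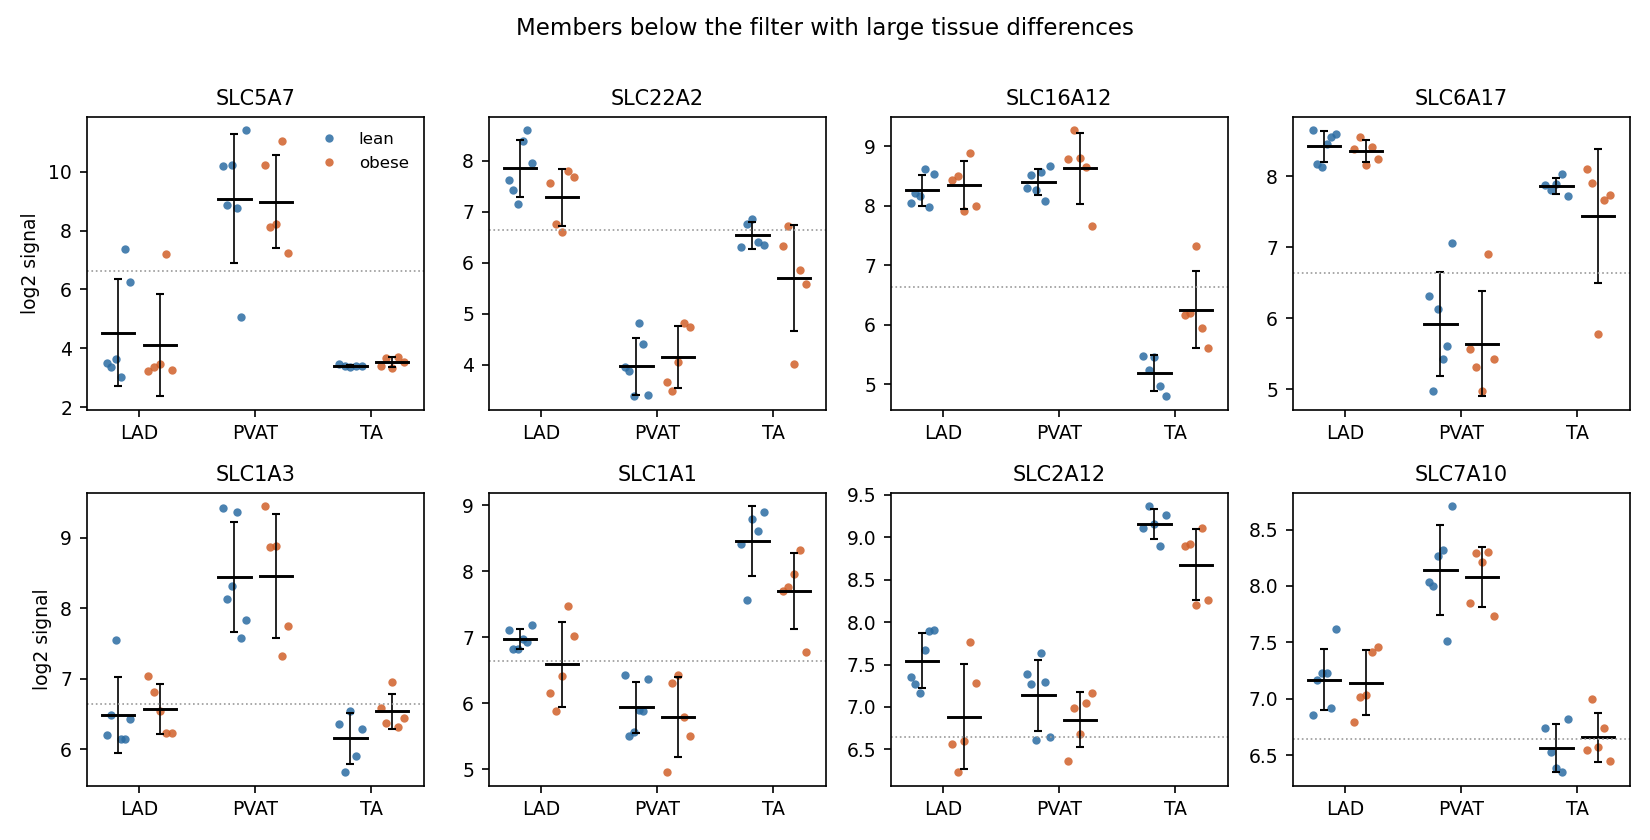
Each point is the log2 signal of 1 array for 8 members below the filter, by tissue (LAD, PVAT, TA) and diet (lean blue, obese orange); black bars and whiskers give the group mean and SD and the dotted line 6.64. SLC5A7 lies at 3.33 to 3.71 in TA and at 5.06 to 11.41 in PVAT, and SLC16A12 lies lowest in TA.

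Diet was compared within each tissue, which asks whether carrier expression differs with juvenile obesity. No member passed in any tissue: 0 of 76 in LAD, against 0.0399% of all tested probe sets, 0 in PVAT, against 0%, and 0 in TA, against 0%. At an unadjusted p under 0.05 there were 6 members in LAD against 17.2% of all tested probe sets, 2 in PVAT against 2.2% and 2 in TA against 7.18%. Lean and obese values overlapped for each of the 76 members in each tissue, while 2.73% of all tested probe sets in LAD, 0.209% in PVAT and 2.99% in TA did not overlap. The difference was positive for 34 members in LAD, 29 in PVAT and 40 in TA. These counts stand without the share of positive differences among all tested probe sets, so they show no direction particular to the members.

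SLC25A1, the citrate carrier, had the largest diet difference among the tested members with an unadjusted p under 0.05. In PVAT its lean values ran from 10.51 to 11.72 (median 10.99), and the obese values were 10.30 in pig 51, 10.04 in pig 55, 10.08 in pig 57, 10.94 in pig 81 and 9.40 in pig 85. Only pig 81 lay within the lean range. The obese mean of 10.15 ± 0.56 (n = 5) differed from the lean mean of 11.06 ± 0.47 (n = 6) by -0.91, with an SE of 0.28 and a limma adjusted p of 0.999. Within the 3 sacrifice dates the difference was -0.70, -1.42 and -0.88. In LAD it was -0.22 (adjusted p = 0.277), and in TA the means were 10.13 and 10.21.

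SLC25A20, which brings acylcarnitine into mitochondria, differed the other way in PVAT. Lean values ran from 8.24 to 8.86, and obese values were 9.20, 9.53, 9.04, 8.37 and 9.32 in pigs 51, 55, 57, 81 and 85. The difference was 0.45 (SE 0.19, limma adjusted p = 0.999), and pig 81 again lay within the lean range. The acyltransferase CPT1A, which makes the cargo of this carrier and is no member, averaged 9.44 ± 0.38 (n = 6) in lean and 10.28 ± 0.53 (n = 5) in obese PVAT, a limma difference of 0.84 (adjusted p = 0.999). In LAD the CPT1A difference was 0.75 (adjusted p = 0.0508), while SLC25A20 averaged 8.33 and 8.42 there.

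SLC17A5, the lysosomal exporter of sialic acid, was higher in obese pigs in both arteries at an unadjusted p. In TA lean values ran from 7.18 to 7.93, and obese values were 8.36, 8.28, 8.82, 7.71 and 8.17 in pigs 51, 55, 57, 81 and 85, a difference of 0.57 (SE 0.21, limma adjusted p = 0.646). With the 28S/18S ratio of RNA quality as a covariate, the TA difference was 0.69 and passed (limma adjusted p = 0.0352). Of all tested probe sets, 5.45% passed with that covariate and 0% without it. The ratio ran from 1.17 to 1.54 in lean TA and from 0.57 to 2.14 in obese TA. Pig 57 had the highest ratio in obese TA, and pigs 81 and 85 of the last date had the lowest. In LAD the ratio ran from 1.13 to 1.43 in lean and from 0.63 to 1.47 in obese pigs. The SLC17A5 difference in LAD was 0.39 (SE 0.15, limma adjusted p = 0.235). PVAT differed by -0.03. The mean of 11 macrophage genes ran from 8.60 to 9.16 in lean and from 9.50 to 11.08 in obese LAD, and its part in the LAD difference was not tested. The pseudogene-named SLC2A3P1 differed by -0.23 in LAD and by -0.30 in TA (adjusted p = 0.249 and 0.668). SLC7A7, SLC7A6OS and SLC25A28 differed in LAD by -0.19, -0.18 and -0.15 (adjusted p of 0.241 to 0.288). This SLC7A7 probe set is the one that the platform annotation names OXA1L. Another, below the filter, which the annotation does name SLC7A7, differed in LAD by 0.78, and a further SLC7A7 probe set by -0.27. The direction for SLC7A7 is therefore uncertain.

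**Figure D5:**
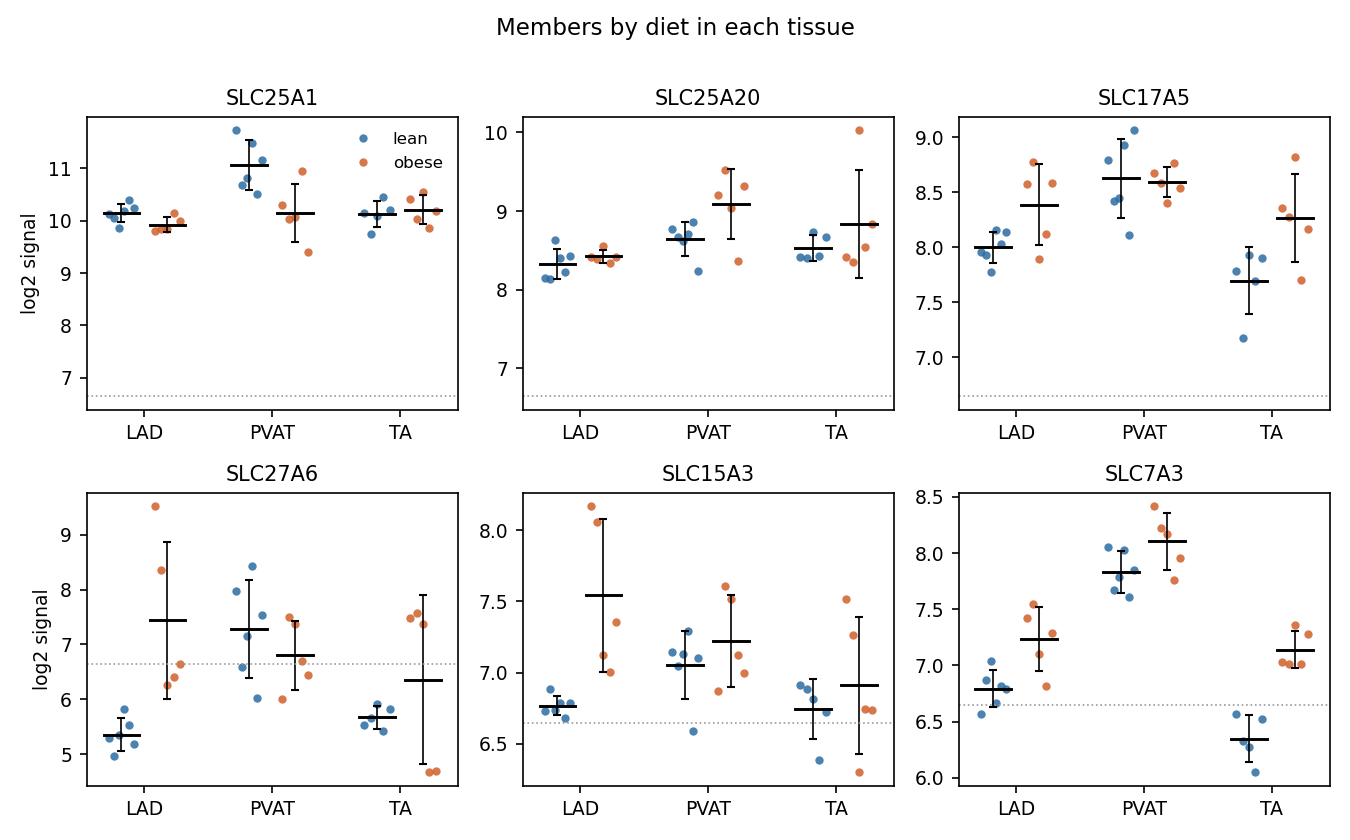
Each point is the log2 signal of 1 array for 6 members by tissue and diet (lean blue, obese orange), with group means and SD in black and the dotted line at 6.64. SLC25A1 is lower in 4 of 5 obese than in all lean PVAT samples, and SLC27A6 separates the diets in LAD but not in PVAT.

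Over all 125 members without the filter, 0 passed in any tissue, against 0% of all probe sets in each. At an unadjusted p under 0.05 there were 15 members in LAD against 16.4% of all probe sets, 2 in PVAT against 2.17% and 7 in TA against 7.3%. Lean and obese values did not overlap for 2 members in LAD against 2.44% of all probe sets, 0 in PVAT against 0.202% and 3 in TA against 2.78%. The 2 in LAD were SLC27A6 and SLC15A3, and the 3 in TA were SLC7A3, SLC16A12 and SLC16A13. All except SLC27A6 were singled out after their values were seen.

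SLC27A6, a fatty acid transport protein of the heart, was at 4.97 to 5.82 in lean LAD (median 5.32). Obese LAD values were 9.52 in pig 51, 8.35 in pig 55, 6.26 in pig 57, 6.41 in pig 81 and 6.63 in pig 85, and every obese value lay above every lean one. Every lean value and 3 of the obese values lay below 6.64. On those obese arrays the mean of the macrophage genes was 11.08, 10.89, 9.50, 9.68 and 10.17, in the same order of pigs from highest to lowest as SLC27A6, and that of the cardiomyocyte genes was 10.72, 10.42, 11.51, 7.70 and 9.96. Their part in the SLC27A6 levels was not tested. In TA the obese pigs of the earlier dates, 51, 55 and 57, had 7.47, 7.58 and 7.38, above the lean range of 5.41 to 5.92, whereas pigs 81 and 85 of the last date had 4.67 and 4.70, below it. In PVAT obese and lean overlapped (6.00 to 7.50 and 6.02 to 8.43).

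SLC15A3, a lysosomal carrier of histidine and small peptides, was at 6.68 to 6.88 in lean LAD and at 8.17, 8.06, 7.12, 7.01 and 7.36 in obese LAD, a difference of 0.78 (SE 0.20, limma adjusted p = 0.176). The macrophage gene mean ran from 9.50 to 11.08 on those 5 arrays and from 8.60 to 9.16 in lean LAD, and its part in the SLC15A3 difference was not tested. SLC7A3, a cationic amino acid carrier, was at 6.05 to 6.57 in lean TA and at 7.03, 7.02, 7.36, 7.02 and 7.28 in obese TA, and every lean value lay below 6.64. The platform annotation gives other loci for the SLC7A3 probe set, so its identity is uncertain. SLC16A12 was at 4.80 to 5.48 in lean TA and at 6.17, 6.20, 7.33, 5.94 and 5.62 in obese TA, and both groups averaged below 6.64. SLC16A13, a monocarboxylate carrier, differed in TA by 0.30 (limma adjusted p = 0.536).

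Whether the diet effect differed between tissues was tested in a fit of all 6 groups. No member passed in any of the 3 differences, against 0% of all tested probe sets in each. At an unadjusted p under 0.05 there were 0 members for LAD minus TA against 2.26% of tested probe sets, 2 for PVAT minus LAD against 2.91% and 4 for PVAT minus TA against 4.92%. For SLC25A1 the difference of diet effects was -0.99 between PVAT and TA (SE 0.30, limma adjusted p = 0.854) and -0.69 between PVAT and LAD (SE 0.29, adjusted p = 1). Between PVAT and TA it was -0.86 for SLC2A1, -0.61 for SLC17A5 and 0.42 for the mitoferrin SLC25A28 (adjusted p = 0.854 each); without the TA array of pig 57 these were -0.50, -0.47 and 0.26. The SLC2A1 difference between LAD and TA was -0.75 (adjusted p = 0.998), and -0.39 without the TA array of pig 57.

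A list of genes that work with these carriers was examined beside them. Of 36 listed partners, 25 were measured and 23 tested. LAD exceeded TA for 5 and was lower for 0, against 24.5% of all tested probe sets passing in either direction. PVAT exceeded LAD for 9 and was lower for 3, against 56.6%, and PVAT exceeded TA for 12 and was lower for 3, against 59.7%. None passed for diet in any tissue, 0 of 23 in each. STK39, a kinase that regulates chloride cotransporters, was higher in PVAT than in LAD by 1.92 (adjusted p = 1.11e-06), and its relative OXSR1 differed by -0.32 (adjusted p = 5.53e-06). Beside ferroportin, the ferritin chains FTH1 and FTL were higher in LAD than in TA by 0.18 and 0.31 (adjusted p = 8.56e-03 and 8.05e-03), and the transferrin receptor TFRC was higher in PVAT than in TA by 1.53 (adjusted p = 1.39e-04). TXNIP, which lowers glucose uptake through SLC2A1, was higher in PVAT than in LAD by 0.65 and than in TA by 0.96 (adjusted p = 4.26e-06 and 7.16e-09).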

How the data were processed

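Per the labels, RNA from 32 tissue samples of 11 pigs was hybridised to Affymetrix porcine arrays, 1 array per sample. The deposited values are log2 signals per probe set that the authors had summarised; the submitters' processing notes name the affy package for R, while the package version and the methods of background correction and normalization are not given in the sources used here. Values lay between 2.40 and 14.52, with medians per array between 8.32 and 8.56. The number of arrays limits the precision. Human symbols came from the deposited AnexDB pairing (11602 probe sets, with 28 symbols turned into calendar dates set aside). GEO's platform annotation gave the same symbol for 61 members, another for 5 and none for 59. All table columns were matched to samples (0 unmatched).

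The members, classes, marker lists and partner list were chosen with earlier results of these data known. Tests used limma 3.58.1 in R 4.3.3 on log2 values with two-sided moderated tests and Benjamini-Hochberg adjustment over 10029 probe sets; the 30% with the lowest mean were left out. Diet was fitted within each tissue, and tissues and differences of diet effects in 1 fit of 6 groups. The scripts were tested on simulated data. The labels give pig IDs, so same-numbered samples come from the same animal; deviations from group means correlated between tissues of a pig at -0.20 to 0.50, and the pig was tried as a block. Other alternatives were no filter or a 50% filter, median centring, quantile normalization, sacrifice date, 28S/18S ratio or cardiomyocyte mean as a term, each pig left out, and the TA array of pig 57 left out, the last chosen after seeing the data. Named members were up to 8 higher and 8 lower per tissue comparison, up to 8 per diet comparison at an unadjusted p under 0.05, up to 3 per difference of diet effects, the 6 highest and 3 lowest means, genes fixed by function, members whose probe sets disagreed, and the 5 most variable. The first part was also applied to members below the filter, after their values had been seen. Per the labels all arrays share 1 experiment date, so no array batch was tested.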

Additional observations from a re-analysis of the deposited data

Results flagged for a closer look

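In 18 of 234 groups examined (39 named members), 1 array lay far from the others of its tissue and diet. Chance flags about 1 in 20 groups. Some of the named members were picked for a large spread or a small p, which a lone array can produce. The flagged share therefore cannot be set against that rate. Of the 18 flagged groups, 11 came from the obese TA array of pig 57. There it was the lowest for SLC40A1 (9.13), SLC12A4 (6.45), SLC22A15 (7.03) and SLC25A28 (8.76). It was the highest for SLC20A2 (9.55), SLC2A1 (10.4), SLC25A6 (12.6), SLC25A17 (11.3), SLC25A20 (10.03), SLC44A1 (11.54) and SLC30A7 (9.73). The lean LAD array of pig 63 was highest for SLC25A4 (13.1) and SLC4A3 (9.16), and it had the highest cardiomyocyte mean of the LAD arrays, 12.08. The obese LAD array of pig 57, with the highest cardiomyocyte mean of the obese LAD arrays, was highest for SLC25A12 (9.59). The others were SLC25A24 in the obese TA of pig 81 (10.5, low), SLC5A3 in the lean LAD of pig 80 (8.58, low), SLC39A10 in the obese PVAT of pig 81 (9.90, high) and SLC25A17 in the lean TA of pig 56 (9.96, low). No member had all obese samples on one side in one tissue and on the opposite side in another.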

How the results depend on the processing

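Of 48 named tissue results, 35 kept direction and call in every alternative in which they were tested and 13 did not; with the 50% filter only 26 of the 48 were tested. Over 125 members without the filter, 30 passed between LAD and TA, 58 between PVAT and LAD and 70 between PVAT and TA, against 17, 37 and 42; more members were tested there. With a 50% filter, 8 passed between LAD and TA and 24 between PVAT and LAD, with fewer tested. With the cardiomyocyte mean as a covariate, 26 of 76 passed between PVAT and TA, against 37% of all tested probe sets (59.7% without it); SLC25A4 turned to -0.28 (LAD versus TA) and -0.26 (PVAT versus TA), SLC25A12 to -0.07 and SLC4A3 to -0.42 (both PVAT versus TA), 8 more of the 48 lost the call, and the cause was not tested. With the 28S/18S ratio as a covariate, 3 of 76 members passed for diet in TA, SLC17A5 (0.69), SLC25A5 (0.80) and SLC4A3 (-0.44), against 5.45% of all tested probe sets (0% without it), and the cause was not tested. With 1 pig left out at a time, 14 to 18, 34 to 44 and 36 to 45 members passed in the tissue comparisons, and 0 to 0 for diet and for each difference of diet effects. With the pig as a fixed replicate block 19, 40 and 43 members passed, and with a random block 18, 42 and 44; among named results the fixed block ended only the call of SLC25A24 between LAD and TA (-0.15, adjusted p = 0.0735). Without the TA array of pig 57, 18, 48 and 46 passed. That array is in neither PVAT nor LAD, so their differences stayed the same, while the spread estimated over all 6 groups changed. The counts with a pig or array left out, a block or the 50% filter stand without the share of all tested probe sets. That share moves too: without all arrays of pig 57 it was 30.3%, 60.8% and 64.7%, against 24.5%, 56.6% and 59.7% with them.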
